A study of Mus musculus with 57 samples.

Results

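Among single mouse T helper 2 (Th2) cells, the 14 cells with the highest granzyme B transcript level were set against the 14 with the lowest. The members were chosen by their measured Gzmb values, ranked over the 54 cells that remained of 56 after 2 cells, T3_2 and T3_5, were left out, and the 26 cells between the groups served as a reference. All cells came from wild-type C57BL/6 mice of 8 weeks. CD4+ T cells from spleen were activated through CD3 and CD28 and grown with IL-4 and an antibody against IFNγ. IL-2 was added after 2 days, and after 5 days in culture the cells were restimulated through CD3 and CD28 and isolated one by one in the microfluidic chambers of a Fluidigm C1. High and low cells therefore share the labelled genotype and treatment, and no label separates them. Cell titles carry a set number, T1 to T5, that the labels do not explain, and each of the 5 sets was treated as a possible batch. No label names separate animals or cultures. The cells therefore counted as 1 sample, and every difference below is a description with no p-value.

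Granzyme B is a serine protease stored in the cytotoxic granules of CD8 T cells and NK cells, and activated CD4+ T cells can also make it. It enters a target cell with the help of perforin and cleaves caspases and their substrates, which starts apoptosis. The cell that makes it is shielded by Serpinb9, an intracellular serpin that binds granzyme B and blocks it. In T cells the Gzmb gene is switched on through the T cell receptor and IL-2, by factors that include AP-1, RUNX and STAT5.

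The stretch of DNA upstream of Gzmb is shown because it carries motifs of these factors. It is the 250 bases before the RefSeq start of the gene, on the minus strand of GRCm38.p6 at chr14:56262335-56262584, read 5′ to 3′. Capitals mark matches to the AP-1 motif TGANTCA and the RUNX motif TGTGGT.
Gzmb: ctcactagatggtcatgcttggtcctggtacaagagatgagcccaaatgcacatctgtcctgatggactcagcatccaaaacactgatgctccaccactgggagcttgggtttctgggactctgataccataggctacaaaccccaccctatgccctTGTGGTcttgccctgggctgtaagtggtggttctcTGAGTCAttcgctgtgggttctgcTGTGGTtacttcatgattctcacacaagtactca
The AP-1 match began at base -58 from the RefSeq start and the RUNX matches at -93 and -34. No TTCNNNGAA, the letters of a STAT motif, was in this window. Both strands were searched, and the matches did not overlap. Of 27025 RefSeq promoters of the same length, 6.87% held the AP-1 letters, 14.2% the RUNX letters and 7.18% the STAT letters. A match describes the letters only. The GENCODE start of Gzmb lies 74 bases further into the gene, and the coordinates are from a later build than the mm9 build of the deposited values.

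Gzmb itself, which chose the cells and is given as a description, was among the most abundant transcripts of the culture. Levels are in TPM, transcript abundance scaled to 1 fixed total per cell and deposited as whole numbers. Its mean over the 54 cells was 3325 TPM (SD 5045) and ranked 29th of 10565 genes. The values ran from 0 to 23103 TPM. In the high cells the lowest value was 3877 TPM, the median 7839.5 and the highest 23103, which was 2.31% of the transcripts of cell T5_4. In the low cells the values lay between 0 and 3 TPM with a median of 1. Gzmb was listed at 0 in 6 of these 14 cells, which are all the zeros of the 54 cells by the way they were chosen. The middle cells had a median of 1219.5 TPM. The high cells held 77.3% of all Gzmb TPM of the 54 cells. Just outside the high group was a cell at 3827 TPM, against 3877 just inside, so that border runs through a continuous range. The other border was between cells at 3 TPM inside and 6 TPM outside. Over all 54 cells, Gzmb reached 1 TPM in 48, 10 TPM in 38 and 100 TPM in 36.

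**Figure D1:**
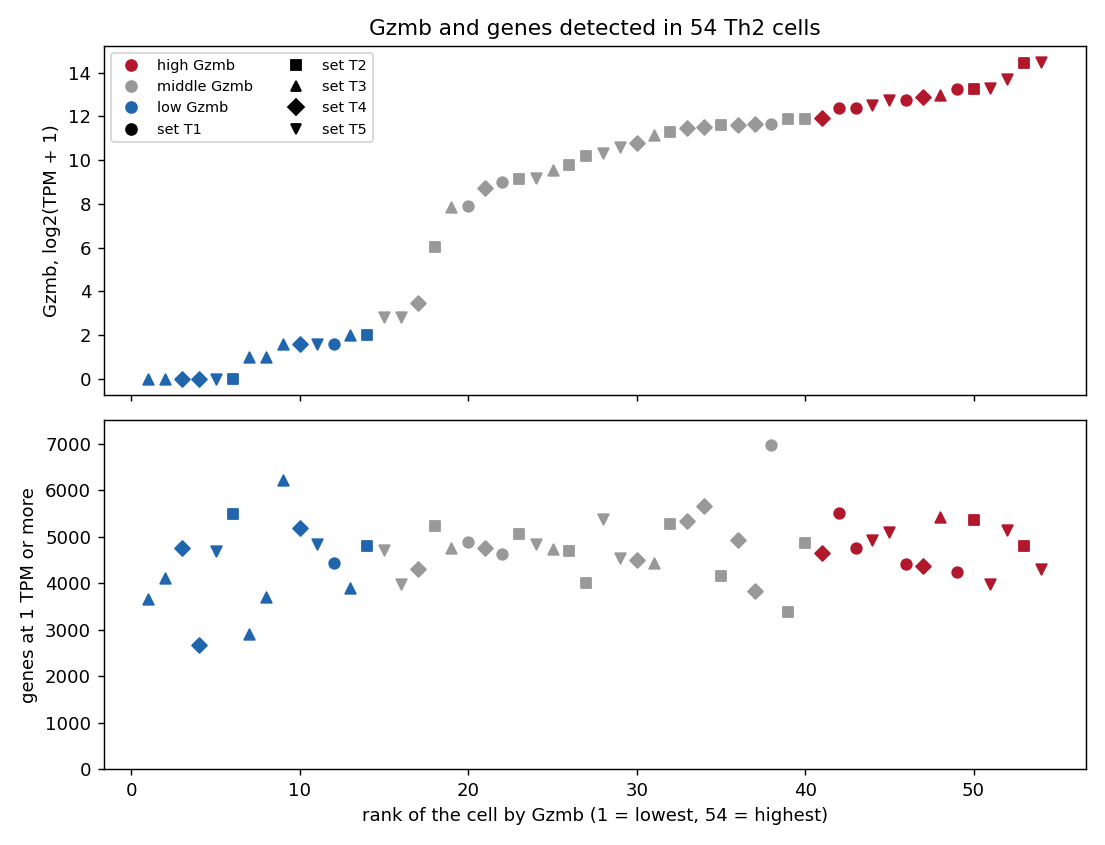
Top, Gzmb as log2(TPM + 1) in each of the 54 cells, ranked from lowest to highest; bottom, number of genes at 1 TPM or more in the same cells. Colour gives the group and symbol the set; the 14 high cells lie at 3877 TPM or more and the 14 low cells at 3 TPM or less, and the 2 cells with the fewest genes are low cells.

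The high cells had somewhat more genes detected than the low cells, and the sets were unevenly shared. A gene counted as detected at 1 TPM or more. The high cells had 3978 to 5502 genes with a median of 4786, and the low cells 2679 to 6212 with a median of 4571. The middle cells had a median of 4743.5. The ranges overlapped, the low cells were more spread (SD 970 against 481 genes), and the 2 cells with the fewest genes, at 2679 and 2906, were both low cells. Over the 54 cells Spearman's rho of Gzmb with genes detected was 0.18, a description of cells that count as 1 sample. Set T3 gave 6 of the 14 low cells and 1 high cell, and its median Gzmb was 2.5 TPM. Set T5 gave 5 high and 2 low cells, T1 gave 4 and 1, T2 gave 2 and 2, and T4 gave 2 and 3. In these other sets the Gzmb medians lay between 1429 and 4238.5 TPM. The part of detection and set in the differences below was not tested, and values with set means or genes detected taken out are given for the calls they end.

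Both groups carried markers of T cells and of the Th2 fate, though not every marker was detected in every cell. Cd3d, a chain of the T cell receptor complex, was detected in all 28 cells, at 659 to 3269 TPM with a median of 1200.0 in high cells and 102 to 3028 with a median of 1250.0 in low cells. Gata3, the factor that sets the Th2 fate, was likewise found in all 28, with medians of 818 TPM in high cells and 1032 TPM in low cells. Of the other Th2 markers, Il4 was detected in 14 high and 12 low cells and Ccr8 in 14 and 13. Maf was detected in 12 and 8, Stat6 in 11 and 9, and Il1rl1 in 5 and 7. Cd4 was detected in 11 high and 8 low cells. Of 15 listed markers of CD8 T and NK cells 4 were in the table, and Cd8b1, a chain of the CD8 coreceptor, was at 0 in all 28 cells. Gzma was detected in 3 high and 2 low cells, Xcl1 in 6 and 9, and Eomes in 0 and 1, and summed TPM of the 4 ran from 0 to 4846 in high cells and from 0 to 1212 in low cells. Of 14 listed markers of mast cells and basophils 3 were in the table. Cd200r3 was detected in 5 high and 0 low cells, at up to 182 TPM, and the mast cell protease gene Cpa3 in 3 and 0, at up to 160 TPM. Hdc, which makes histamine, was at 0 in all 28 cells. The summed TPM of these 3 ran from 0 to 182 in the high cells and was 0 in every low cell. For myeloid cells the table held Cd68, detected in 3 high and 0 low cells at up to 34 TPM, and for B cells Cd74, detected in 8 and 8. The part of such transcripts in the differences below was not tested. Prf1, which encodes perforin, was not analysed here.

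Of 7641 other genes detected in at least 10 of the 54 cells, 293 were higher in the high cells by a difference of 2 or more (3.83%) and 84 were lower by 2 or more (1.1%). The difference is the mean log2(TPM + 1) of the 14 high cells minus that of the 14 low cells. The added 1 shrinks changes at a few TPM. Cells listed at 0 can instead make a difference large where mean TPM is close. Cyp11a1, for example, differed by 3.42 with means of 1334 TPM in high and 1095 TPM in low cells. The size of 2 was a fixed rule of description. The filter counted the high cells too, so some genes, such as Il6, Prdm1 and Rab27a, reached 10 cells only with their high cells. Spread between single cells was large, with a median SD of 2.44 per gene over the 28 cells. The median difference over all genes was 0.17, with 57.3% of genes above 0 and 42.7% below. The 77.7% share of higher genes among the called ones moved with the processing. With set means taken out, 140 genes were higher and 85 lower. With the number of genes detected regressed out, they were 155 and 149, without set T3 314 and 291, and without the 2 low cells with the fewest genes 228 and 164. The median over all genes moved by -0.13 with set means taken out and by -0.20 with genes detected taken out. Of the 293 higher genes, 129 passed with set means taken out and 154 with genes detected taken out, and of the 84 lower genes 51 and 79. Within the sets, 101 of the 293 were higher in all 5 and 28 of the 84 were lower in all 5. Of all 7641 genes these were 238 and 176. The calls were made on the same 28 cells, so a larger share among called genes follows in part from the call. Counts of sets here and below are therefore descriptions, and T3 holds 1 high cell and T1 holds 1 low cell.

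The largest difference of all genes was that of Serpinb9, the intracellular inhibitor of granzyme B. It ran from 0 to 2207 TPM with a median of 158.5 in the high cells, where 12 of 14 had it (85.7%, exact Clopper-Pearson 95% interval 57.2% to 98.2%, which covers counting error only). In the low cells it ran from 0 to 25 TPM with a median of 0, and 3 of 14 had it (21.4%, interval 4.66% to 50.8%). The groups overlapped only through the high cells at little or no Serpinb9, since 11 high cells stood above the highest low cell. The difference was 5.58, from a mean log2(TPM + 1) of 6.37 (SD 3.55, n = 14 cells) to 0.80 (SD 1.62, n = 14 cells). Of 26 middle cells 14 had the transcript, with a median of 1 TPM and at most 1045. High cells exceeded low cells in every set, by 4.70 (T5), 4.99 (T4), 5.17 (T2), 7.41 (T1) and 8.95 (T3). The value of T3 rests on 1 high cell and that of T1 on 1 low cell. The Serpinb9 difference stayed past 2 in each of the 17 alternatives run, between 3.47 and 6.37. One cell, T1_4, held 41% of the Serpinb9 TPM of the high cells.

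Over all 54 cells Serpinb9 was also the gene whose ranks were most like those of Gzmb, with a Spearman rho of 0.57 (range over all genes -0.46 to 0.57). Likeness is given as a description, since the groups were cut from the same Gzmb values and cells of a set share that set. In the 26 middle cells, which lay outside both groups, rho was 0.369. It was not the highest there, since Irf9 at 0.420 and Zfp263 at 0.373 were above it. Its rank there among all genes is not given, so the value is a description only. The next genes by rho were 2010107H07Rik at 0.55, Tgds, Ddx6 and Sptlc2 at 0.52, 0.52 and 0.51, Thoc6 at 0.49 and Ndrg1 at 0.48. In the middle cells 2010107H07Rik, Tgds, Ddx6, Thoc6 and Ndrg1 were at 0.24, 0.14, 0.21, 0.11 and 0.28. Sytl3, a synaptotagmin-like protein of the family that docks secretory vesicles, had a rho of 0.46 and was detected in 11 high and 3 low cells. Its difference was 2.46, which was 1.70 with set means taken out and under 2 in 4 alternatives. The lowest rho were those of Tnpo2, Tspan32 and Ppa2, each at -0.46.

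**Figure D2:**
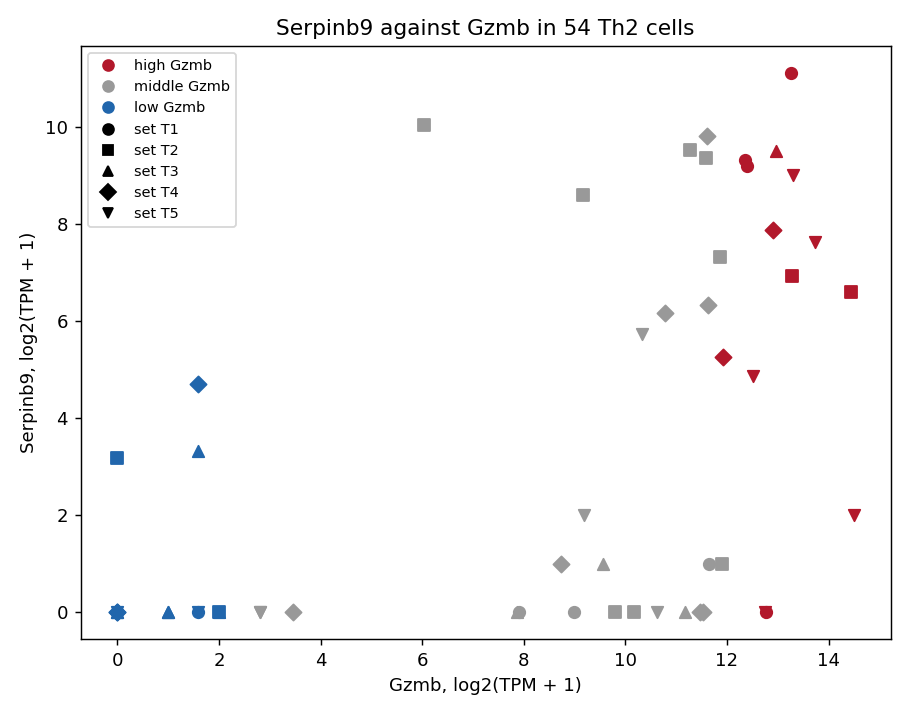
Serpinb9 against Gzmb in each of the 54 cells, both as log2(TPM + 1); colour gives the group and symbol the set. Of the high cells 11 lie above every low cell, and 2 high cells and 11 low cells are listed at 0 for Serpinb9.

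A second serpin of the same clade, Serpinb6b, was among the 15 largest differences. It ran from 0 to 3075 TPM with a median of 54.5 in high cells and from 0 to 100 TPM with a median of 0.5 in low cells. It was detected in 10 high and 7 low cells, and 6 high cells stood above the highest low cell. The difference was 3.69 (SD 4.48 and 2.12 over the cells of each group), with 3.07 to 6.13 within the sets and 2.56 to 4.59 in the alternatives. The middle cells had a mean of 588 TPM against 509 in high and 10.3 in low cells, but a median of 3 TPM, between those of the groups. Serpinb6b and Serpinb9 lie 39.28 kb apart by their RefSeq starts on chromosome 13. Serpinb6a, which was detected in 3 high and 2 low cells, had a difference of 0.49 (-0.22 with set means taken out). Serpinb9b was detected in 3 high cells and no low cell and did not reach 10 of 54 cells. These serpins are close copies of each other, and the granzymes likewise among themselves. How the upstream processing divided reads within each family is therefore uncertain.

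Beside the serpins, the other genes of the granule pathway differed less. Of the 18 members compared of 27 listed, 5 were higher by 2 or more, 0 were lower, and 15 were above 0. Their median difference was 0.66, against 0.17 over all genes, and it ran from 0.25 to 1.09 in the alternatives. Every count of list members past 2 or above 0 is read against the shares over all genes, 3.83% higher, 1.1% lower and 57.3% above 0. The 5 were both serpins, Stx11, Lamp2 and Nkg7. Stx11, a syntaxin needed for release of cytotoxic granules, was detected in 13 high and 10 low cells, with medians of 229 and 35 TPM and a difference of 2.24 (0.99 with set means and 1.86 with genes detected taken out). Lamp2, a membrane protein of lysosomes and granules, was detected in 14 and 9, with medians of 74 and 6 TPM and a difference of 2.23 (1.48 with set means and 1.81 with genes detected taken out). Its mean was lower in high cells, at 86.1 TPM against 107.5, and within the sets it ran from -1.44 (T2) to 6.00 (T4). Stx11 and Lamp2 were each under 2 in 6 of the 17 alternatives, and the highest low cell exceeded every high cell for both.

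Nkg7, a membrane protein of cytotoxic granules, was detected in 6 high and 6 low cells and had a median of 0 in both groups. Its difference of 2.21 rested on few cells, since T1_7 held 71.5% of the TPM of the high cells, and it was 0.58 without set T1, 1.54 with set means and 1.40 with genes detected taken out, and under 2 in 9 alternatives. The most abundant granule genes were near level. Srgn, the proteoglycan on which granule proteases are packed, ran from 6537 to 32625 TPM with a median of 10390 in high cells and from 2311 to 27399 TPM with a median of 8582.5 in low cells. Cst7, an inhibitor of granule cathepsins, had medians of 1802.5 and 1330.0 TPM and a difference of 0.29. Rab27a, a GTPase of granule docking, was detected in 4 high cells and 1 low cell and differed by 1.69. Ctsc, the protease that activates granzymes, differed by -0.74, but by 0.79 with 10 cells a group, and its median was higher in high cells, at 59.5 TPM against 44. The sorting receptors M6pr and Igf2r differed by 0.80 and -0.12, and the death ligand gene Fasl by 0.36, and of these Igf2r and Fasl changed sign in at least 1 alternative. The other granzymes were rare, with Gzma in 3 high and 2 low cells and Gzmc in 4 and 2, so that high Gzmb did not come with detected Gzma in most of these cells.

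**Figure D3:**
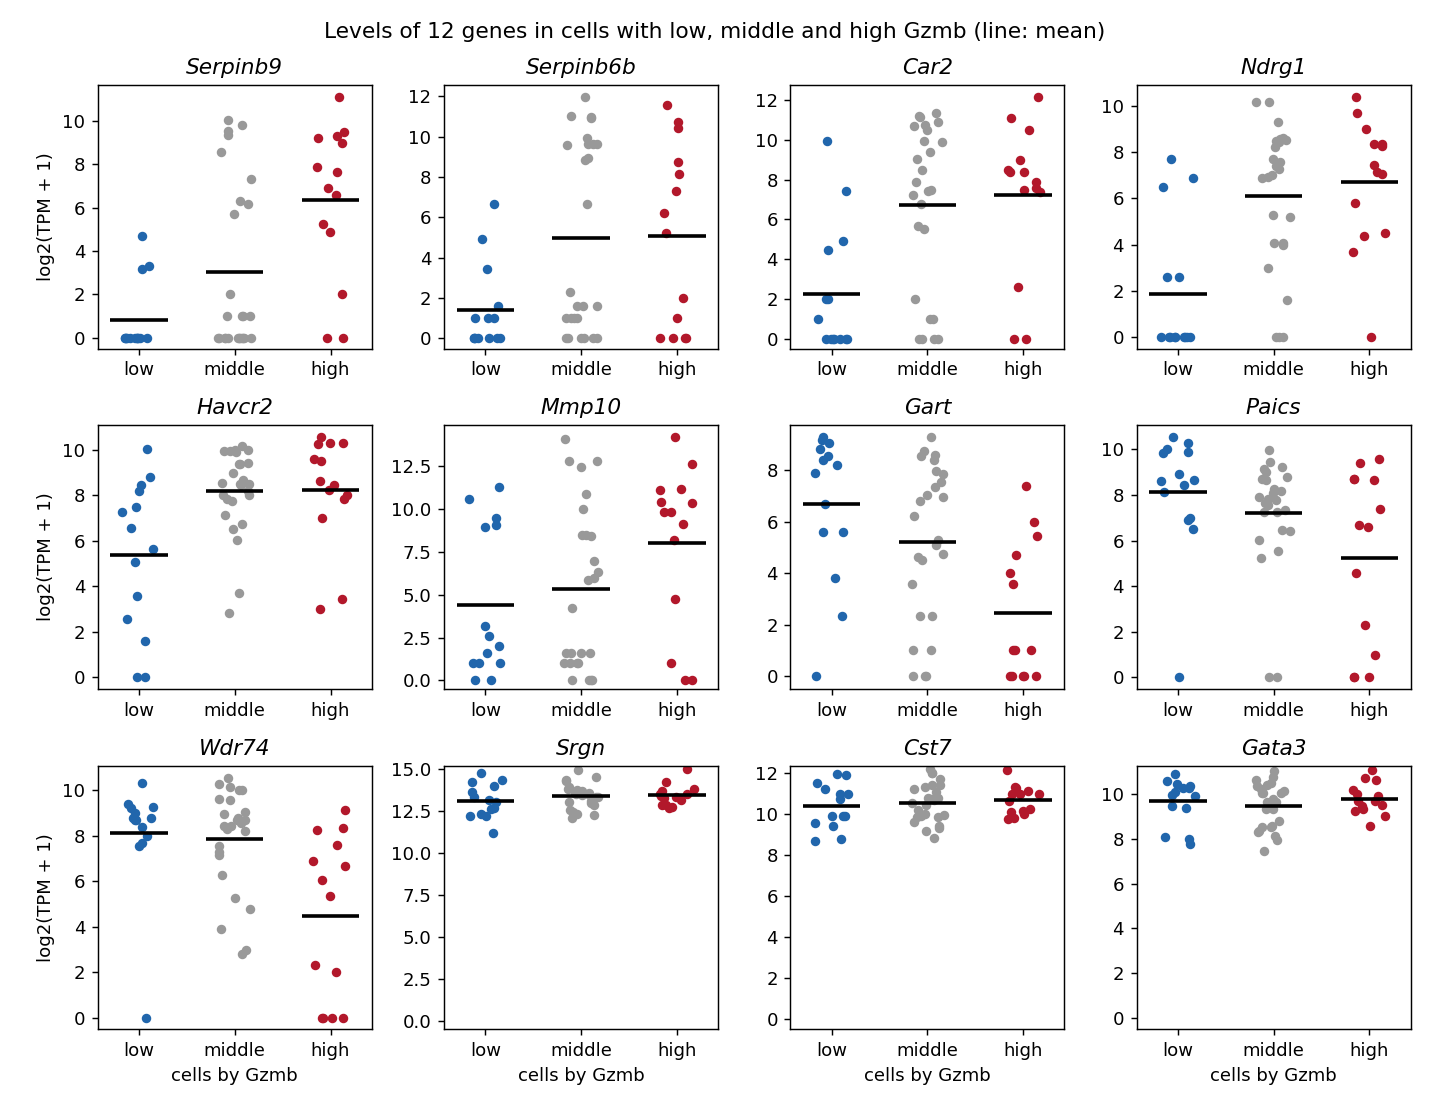
Levels of 12 genes as log2(TPM + 1) in the low, middle and high cells; each point is a cell and each line a group mean. Serpinb9 is at a mean of 0.80 in low and 6.37 in high cells, Gart at 6.67 and 2.44, and the abundant granule gene Srgn differs by 0.32.

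The remaining genes with the largest differences were not of 1 kind. Car2, a carbonic anhydrase, ran from 0 to 4560 TPM with a median of 282 in high cells and from 0 to 982 with a median of 0.5 in low cells, a difference of 4.93. It was higher in 4 sets and lower in T2, by -3.24. Tgds, a gene with a sugar-nucleotide dehydratase domain, was detected in 12 high and 4 low cells, with medians of 154.5 and 0 TPM and a difference of 4.93. Ndrg1, a gene induced by hypoxia and by stress, was detected in 13 high and 5 low cells, with medians of 157.5 and 0 TPM and a difference of 4.85. High and low cells overlapped for all 3, and 6 high cells stood above the highest low cell for Ndrg1. The next were 0610031J06Rik (3.78), Rbm5 (3.78), Thoc6 (3.77) and 4833419F23Rik (3.76). Orc1, a subunit of the complex that marks origins of DNA replication, was detected in 11 high and 3 low cells, with a difference of 3.60 and 9 high cells above the highest low cell. Ddx6, an RNA helicase of processing bodies, was detected in 14 high and 10 low cells and differed by 3.45.

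Of the 15 largest differences 11 were higher in all 5 sets and 14 in at least 4. With set means taken out they ran from 2.68 to 4.94. Among the 15, 4 genes (Thoc6, 2010107H07Rik, Orc1 and Dtwd1) were under 2 at a pseudocount of 10 in place of 1, and the other 11 were past 2 in all 17 alternatives.

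**Figure D4:**
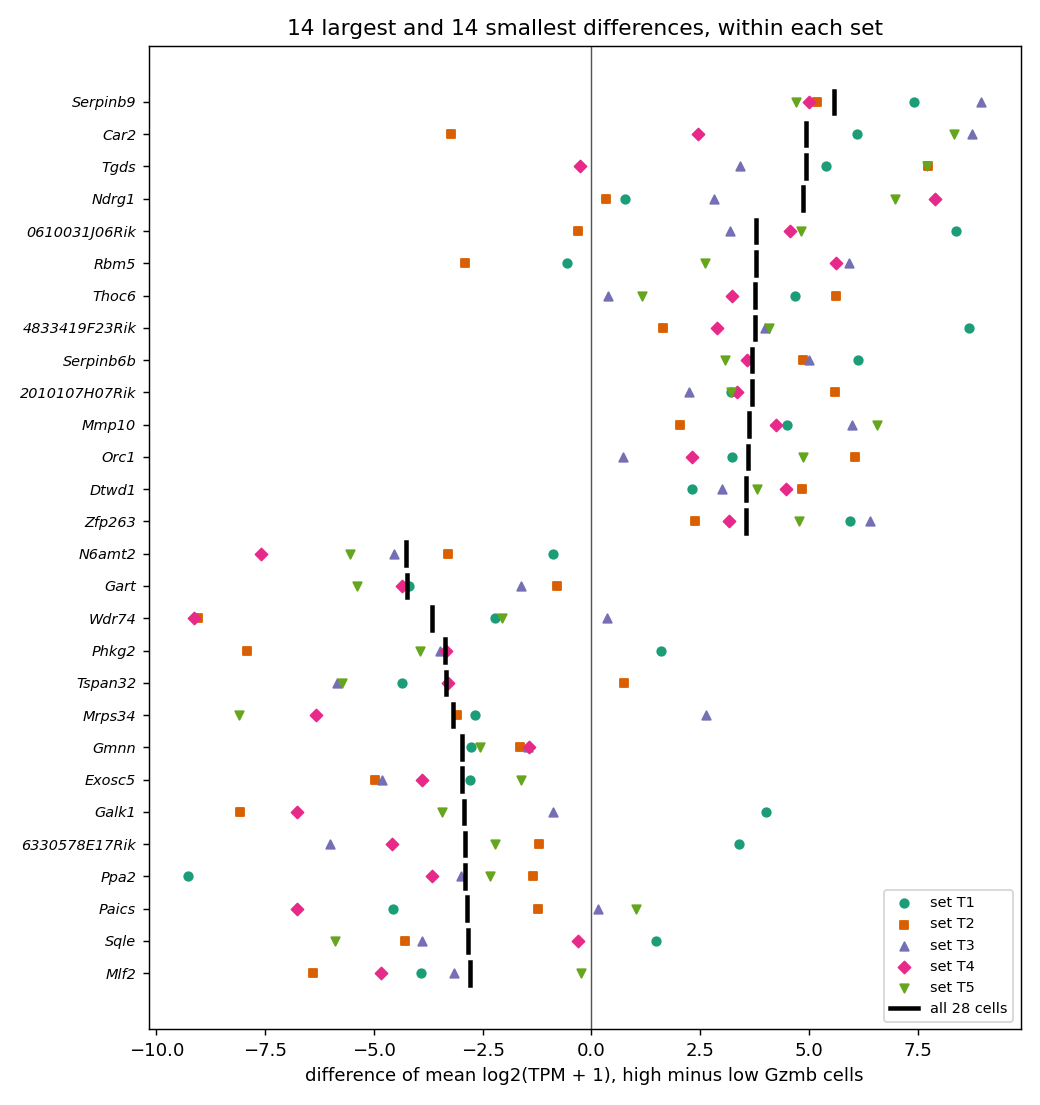
Difference of mean log2(TPM + 1), high minus low cells, for the 14 genes with the largest and the 14 with the smallest values; the black line is over all 28 cells and each symbol is the difference within 1 set. Serpinb9 lies above 0 in all 5 sets and Gart below 0 in all 5, while Car2 is below 0 in T2.

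Most Th2 cytokines were above 0, at a size that few passed, and several were higher still in the middle cells. Of 11 compared, 2 were higher by 2 or more, 0 were lower and 10 were above 0 (over all genes 3.83%, 1.1% and 57.3%), with a median difference of 1.20 (0.74 to 1.48 in the alternatives). Il10, which encodes an anti-inflammatory cytokine, ran from 0 to 23652 TPM with a median of 761.5 in high cells and from 0 to 1912 with a median of 47 in low cells. It was detected in 12 cells of each group, 4 high cells stood above the highest low cell, and T5_4, the cell with the most Gzmb, held 63.6% of the TPM of the high cells. The middle cells had a higher Il10 median, 901 TPM, and a mean log2(TPM + 1) of 9.57 against 7.89 in high and 5.51 in low cells. The difference of 2.38 was 1.78 with set means taken out and 1.43 with genes detected taken out. Il6 was detected in 6 high cells and 1 low cell and differed by 2.13, which was 1.25 with set means taken out and under 2 in 7 alternatives. It was detected in 12 of the 54 cells and reached the filter of 10 only with its high cells, so its call carries little weight. Il4, the hallmark cytokine, had close medians of 277.5 and 252 TPM, and its difference of 1.20 came with detection in 14 high and 12 low cells. The middle cells exceeded both, with a median of 611.5 TPM. Il3 had medians of 536.5 TPM in high, 704.5 in middle and 25.5 in low cells and differed by 1.25. Il13 was detected in 9 and 6 cells and differed by 1.38, Il5 in 3 and 4 and differed by 0.32, and Csf2 differed by -0.85, but by 0.01 with set means taken out.

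Among other secreted and hormone-related genes, 4 of 14 were higher by 2 or more, 0 were lower and 13 were above 0, with a median of 1.41 (0.91 to 1.84). Mmp10, a matrix metalloproteinase, ran from 0 to 18700 TPM with a median of 895 in high cells and from 0 to 2529 with a median of 4 in low cells. It was detected in 12 cells of each group and differed by 3.63, and T1_2 held 53.4% of the TPM of the high cells. Cyp11a1, the enzyme that opens steroid synthesis, was detected in all 14 high cells and 11 low cells, and its medians of 976.5 and 680.5 TPM were close. Its difference was 3.42, with 3 low cells in which it was not detected, and within the sets it ran from -1.91 (T2) to 9.50 (T5). Its rho with Gzmb was 0.07 over 54 cells and -0.52 in the 26 middle cells, opposite in sign to the group difference. Inhba, a subunit of activins, differed by 2.70, but its median was higher in middle cells (1477.5 TPM) than in high cells (1322.5 TPM). Nts, which encodes neurotensin, differed by 2.05, but by 1.04 with set means and 1.35 with genes detected taken out, and was under 2 in 9 alternatives. Its mean was lower in high cells, at 1031 TPM against 1657. The chemokine Ccl1 ran from 6 to 47466 TPM with a median of 11044.5 in high cells and from 0 to 40713 with a median of 457.5 in low cells, a difference of 2.66 that was 1.86 with set means and 1.84 with genes detected taken out and under 2 in 6 alternatives. Of the 7 chemokines compared it was the only one past 2, and Ccl4 differed by -1.67.

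As Gzmb is a known target of IL-2 signalling, the receptor chains and STAT5 targets were described next. Of 29 genes compared 4 were higher by 2 or more, 0 were lower and 23 were above 0, with a median of 0.47 (0.16 to 0.79). The receptor chains differed little, with Il2ra at 0.04, Il2rb at 0.48 and Il2rg at 0.29, and Cish, a feedback inhibitor induced by STAT5, at 0.02. Stat5a, the transcription factor itself, ran from 6 to 591 TPM with a median of 112 in high cells and from 0 to 235 with a median of 24 in low cells, a difference of 2.17 that was 1.87 with genes detected taken out and under 2 in 7 alternatives. The middle cells had a Stat5a median of 122.5 TPM, above that of the high cells, and within them its rho with Gzmb was -0.16. Il1r2, a decoy receptor for IL-1, was detected in 9 high and 5 low cells and differed by 3.33, past 2 in every alternative. Its median was higher in the middle cells (600.5 TPM) than in the high cells (450.0 TPM). Bcl2l1, an anti-apoptotic gene, differed by 2.34 and the granule gene Nkg7, which this list also holds, by 2.21. For Bcl2l1 the median was 105.5 TPM in middle cells against 58.5 in high and 21 in low cells. Prdm1, which encodes the effector regulator Blimp-1, was detected in 6 high and 2 low cells and differed by 1.93. Pim2, a survival kinase, had the lowest value at -1.65.

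Regulators of the Th2 programme were near the level of all genes, with a median of 0.10 over 17 genes, which was below 0 without set T2. Of these 2 were higher by 2 or more and 0 lower. Bhlhe40, a repressor induced by activation, differed by 2.46 and Maf, an activator of Il4 and Il10, by 2.14, but with set means taken out they were at 0.99 and 1.0, and with genes detected taken out at 1.75 and 1.46. Gata3 differed by 0.10. Of 17 cytotoxic and effector transcription factors compared of 25 listed, 0 passed 2 in either direction and 14 were above 0, with a median of 0.58. Tbx21 and Eomes were listed but not among the 17, and Eomes was detected in 0 high cells and 1 low cell. Activation genes had a median of 0.29 over 27 members, which was below 0 without set T3, and 3 were higher by 2 or more. They were the TNF family ligand Tnfsf14 at 3.30, the inhibitory receptor Havcr2 (Tim-3) at 2.85 and the early growth response factor Egr2 at 2.26, which was 1.56 with set means and 1.86 with genes detected taken out. Tnfsf14 was under 2 in 3 alternatives, at 1.48 with 18 cells a group, and had a median of 42 TPM in both middle and high cells. For Egr2 the middle cells had a higher median than the high cells, 100.5 against 74.5 TPM. Havcr2 ran from 7 to 1484 TPM with a median of 370 in high cells and from 0 to 1038 with a median of 70 in low cells, was higher in all 5 sets and stayed past 2 in every alternative. Il1a, which encodes interleukin-1α, had medians of 185.5 and 3.5 TPM, and 6 high cells stood above the highest low cell. Its difference of 3.25 was under 2 with 10 and with 18 cells a group, at 1.45 with 18. The middle cells had a median of 54 TPM but a higher mean log2(TPM + 1) than the high cells, 6.25 against 5.81. Within the middle cells its rho with Gzmb was -0.05.

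Stress and apoptosis genes had a median of 0.48 over 15, but of -0.03 with set means taken out. Of these 3 were higher by 2 or more, among them Gadd45b at 3.15 and Mdm2, the ligase that degrades p53, at 2.26 (1.87 with genes detected taken out). Gadd45b, a stress-induced gene, lay between 69 and 443 TPM in all 14 high cells and between 0 and 321 in low cells, 5 of which had none detected. Bax, an effector of mitochondrial apoptosis, was at -1.33. Interferon response genes had a median of 0.71 over 21, and of 0.23 with set means taken out. Irf9 was at 2.27 (1.97 with genes detected taken out) and Ifi47 at 2.17 (1.08 with set means and 1.99 with genes detected taken out).

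The genes with the most negative differences were also of several kinds. Gart, an enzyme that carries out several steps of purine synthesis, ran from 0 to 168 TPM with a median of 1 in high cells and from 0 to 616 with a median of 267 in low cells. It was detected in 9 high and 13 low cells, and 8 low cells stood above the highest high cell. The difference was -4.23, from a mean log2(TPM + 1) of 2.44 (SD 2.65, n = 14 cells) to 6.67 (SD 2.88, n = 14 cells). It was below 0 in all 5 sets. The middle cells had a median of 55.5 TPM, but within them the rho of Gart with Gzmb was 0.29, opposite in sign to the group difference. N6amt2, a methyltransferase gene, had medians of 1 and 199 TPM and the most negative difference of all genes, -4.27. Wdr74, a factor of ribosome assembly, had medians of 53 and 426 TPM and a difference of -3.66, and 4 low cells stood above the highest high cell. Tspan32, a tetraspanin of blood cells, had medians of 7.5 and 235 TPM and a difference of -3.35. Mrps34, a mitochondrial ribosomal protein, was at -3.18, the RNA exosome subunit Exosc5 at -2.98 and the galactose kinase Galk1 at -2.94. N6amt2, Gart, Wdr74, Tspan32 and Mrps34 were past 2 in size in all 17 alternatives. Of the 15 smallest differences 6 were lower in all 5 sets and 14 in at least 4, and with set means taken out they ran from -3.69 to -1.93.

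Paics, which follows Gart in the same pathway, had medians of 98.5 and 397 TPM and a difference of -2.87, but it was above 0 in sets T3 (0.15) and T5 (1.02). Because both were among the 15 smallest, the rest of the purine pathway was looked up after these values were seen, and its counts support nothing on their own. Of 16 purine synthesis genes compared, 0 were higher by 2 or more, 2 were lower (Gart and Paics) and 12 were below 0, with a median of -0.74 (-0.52 with set means taken out). Gmps, which makes GMP, was at -1.44, Adsl at -0.79 and Pfas at -0.25. Ppat, the first committed enzyme, was at 0.35. Ppat, Pfas and Adsl each changed sign in at least 1 alternative.

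Few cell cycle genes in number passed 2 in either direction. The shares over all genes were 3.83% higher and 1.1% lower. With so few calls, neither a shortage nor an excess is read from these counts. G1/S genes had a median of -0.29 over 35 members, between -0.91 and -0.08 in the alternatives, with 0 higher by 2 or more and 1 lower, the replication clamp loader subunit Rfc4 at -2.10. Rfc4 was under 2 in size in 7 alternatives. Gmnn, the geminin that blocks relicensing of origins, had medians of 13 and 132 TPM and a difference of -2.98, and it was lower in all 5 sets, at -1.93 with set means taken out, while Orc1 was at 3.60. G2/M genes had a median of 0.11 over 51, which was below 0 in 8 alternatives, with 1 higher by 2 or more and 2 lower. These were Cks2 at 2.30 (1.57 with genes detected taken out), the mitotic kinase Aurka at -2.03 and the kinetochore motor Cenpe at -2.19 (-1.58 with set means taken out), under 2 in size in 7, 6 and 4 alternatives. MHC class I presentation genes were on the low side, with 7 of 8 below 0 and a median of -0.89 (-1.19 to -0.41), and none passed 2 in size. These 8 were compared of 14 listed, and no H2 heavy chain gene was among them. The peptide trimming enzyme Erap1 was at -1.56, the immunoproteasome subunits Psmb8 and Psmb9 at -1.22 and -1.02, the peptide transporter Tap1 at -1.18 and B2m at 0.16.

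Few metabolic and housekeeping genes passed 2, and the medians of these lists changed sign with the processing. Glycolysis had a median of -0.15 over 15 genes, the unfolded protein response -0.25 over 23, oxidative phosphorylation -0.05 over 53 and housekeeping genes 0.15 over 16, and each of these was on the other side of 0 in 3 or 4 alternatives. Cytosolic ribosomal proteins had a median of -0.25 over 75 genes, 65 of them below 0, and a median of 0.080 with T3_2 and T3_5 kept. T cell identity genes had a median of 0.43 over 15. Integrins and adhesion genes were at 0.51 over 13, with the tetraspanin Cd9 at 2.47 (1.78 with genes detected taken out), Treg genes at 0.38 over 7, naive T cell genes at 0.43 over 9 and Th1 genes at 0.28 over 5. Of these 4 medians, that of naive genes was below 0 in 2 alternatives and that of Th1 genes in 6.

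**Figure D5:**
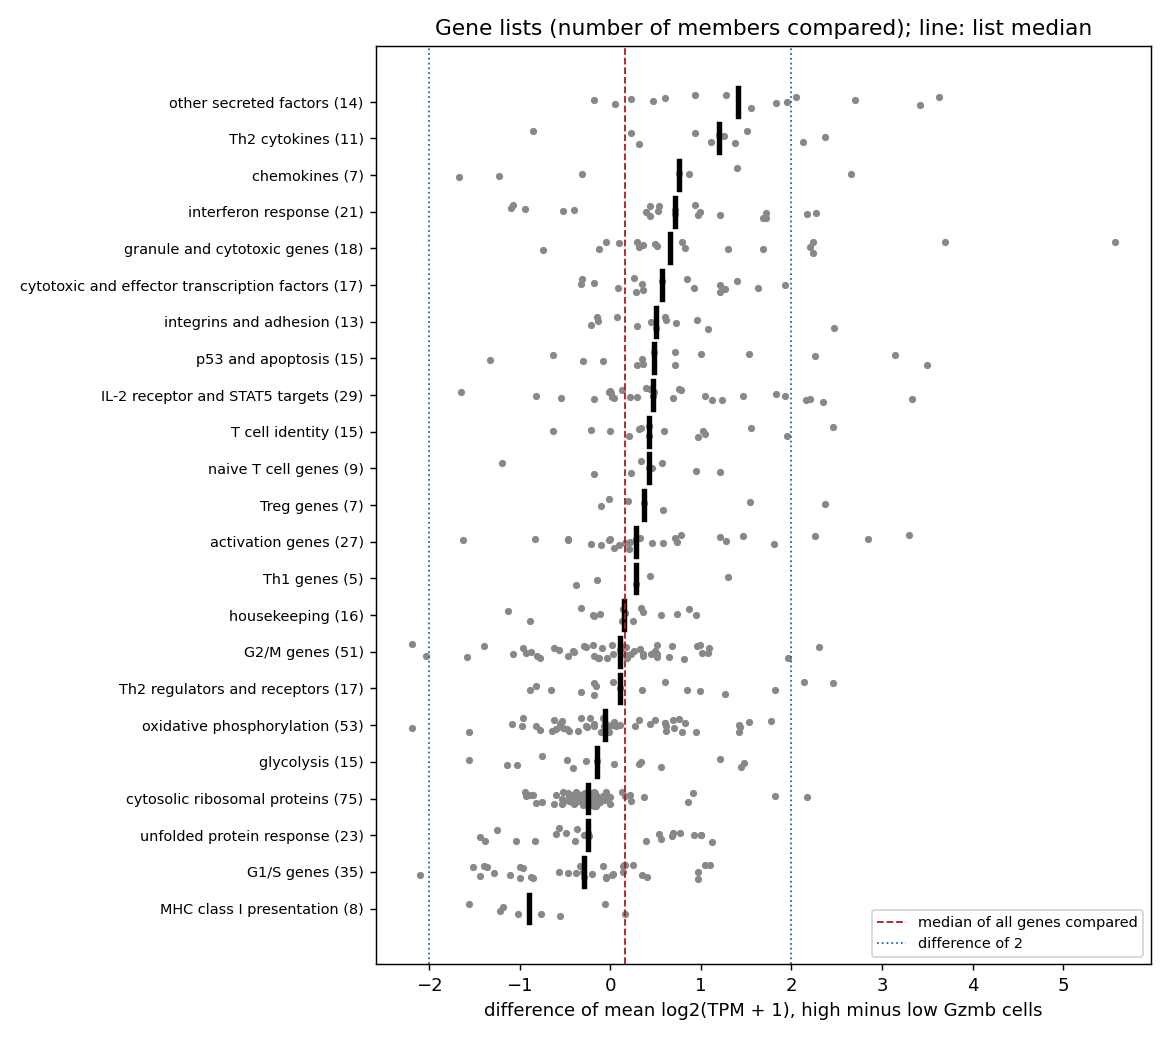
Differences of mean log2(TPM + 1), high minus low cells, for the members of 23 gene lists; each grey point is a gene, each black line a list median, the dashed line the median of all genes (0.17) and the dotted lines a difference of 2 in either direction. Other secreted factors and Th2 cytokines lie at the upper end with medians of 1.41 and 1.20, and MHC class I presentation at the lower end with -0.89.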

How the data were processed

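Expression was measured by RNA sequencing of single cells. The deposited values are a score, namely TPM in whole numbers with column totals of 999202 to 999914; that the authors rounded them is inferred from these values. FastQC, Bowtie 0.12.2, Cufflinks and the mm9 build are listed per the submitters' processing notes; their roles and settings are not given in the sources used here. Sequencing depth cannot be read from TPM and is unknown here, the counting error of a level therefore cannot be given, and 0 means only that a gene is listed at 0.

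The 54 cells were ranked by Gzmb with ties in column order, and the 14 highest and 14 lowest were compared. Cells T3_2 (3096 genes detected, Gzmb 0) and T3_5 (8396 genes, Gzmb 1947 TPM) were left out by the rule that chose the groups and kept in an alternative. Genes at 1 TPM or more in at least 10 of the 54 cells were compared by mean log2(TPM + 1), with a pseudocount of 1, and a difference of 2 or more in size was called. The cells are 1 sample, so no test was run. Shares of cells carry exact Clopper-Pearson 95% intervals. The 28 gene lists and the groups were chosen with earlier results of these data known. Of the lists, 23 had at least 3 members compared and are described.

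Genes were named by rule: members of 3 lists (granule, Th2 cytokine and IL-2 genes), up to 4 of every other list, the 15 largest and 15 smallest differences, the 10 largest and 10 smallest at a mean of at least 200 TPM, the 10 highest and 5 lowest rho with Gzmb, and cell type markers. Some are given by counts or ranges, and 2 are not reported here. The purine and serpin genes outside these lists, Inhba, Nts, Mdm2 and Egr2 were chosen after their values were seen. Symbols were matched to the GRCm38.p6 annotation: 9501 were current, 949 older and 115 unmatched.

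Set means were removed per gene over the 54 cells, or the number of genes detected was regressed out. These alternatives and those without each set, with other pseudocounts, filters and group sizes are given at the end. The calculation was checked on simulated data. Python 3.11.15, numpy 2.4.6, pandas 2.3.3, scipy 1.17.1 and matplotlib 3.10.9 were used.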

Additional observations from a re-analysis of the deposited data

How the results depend on the processing

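Of 17 alternatives 2 were chosen after seeing the data: leaving out the 2 low cells with the fewest genes, and leaving out each gene's highest cell in its higher group. None of the 72 named genes past 2 changed sign; 20 were past 2 in all, and 52 were under 2 in at least 1. The 293 higher genes became 25 at log2(TPM + 10), 140 with set means taken out, 155 with genes detected taken out, 515 without set T5, 170 without each gene's highest cell, 679 called at 1.5 and 42 at 3. The 84 lower genes became 6 at log2(TPM + 10), 205 with 10 cells a group, 46 with 18, 149 with genes detected taken out, 153 without set T1, 291 without T3, 136 without T4, 160 without T5, 164 without the 2 low cells, 40 without each gene's highest cell, 273 called at 1.5 and 6 at 3. The cause was not tested, beyond the fewer cells that some settings leave. Of 391 values of list medians under alternatives, 390 moved by less than the SD over cells of the list's mean level; the exception was cytosolic ribosomal proteins, at 0.080 with T3_2 and T3_5 kept. No paired analysis was possible because the cells form 1 group of labels and the results come from no test. Unknown depth limits low values: a gene at 0 in 1 cell may have been lost in capture.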
